A study of Arabidopsis thaliana with 6 samples.

Results

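The genes AT5G52710 to AT5G52770 are 7 consecutive protein-coding genes on chromosome 5 of Arabidopsis thaliana, known as genes for small proteins with a heavy-metal-associated domain. In RefSeq's gene table (assembly TAIR10.1) no other gene lies between any neighbouring pair of them. They were selected on the measured change of AT5G52760, the sixth in the run, which was among the strongest responders to the chitin fragment chitooctaose in these arrays, and the question put to the data is whether its neighbours respond alike. The contrast of chitooctaose with water thus chose the genes, and its values for them are given as a description, with errors and without p-values. Of the 7 genes, 6 were on a probe set that the platform annotation gives to exactly 1 gene, among 13355 genes so measured in the series. The seventh, AT5G52730, had no such probe set and is not analysed here. Each of the 6 had 1 probe set, the group of short probes that reads a transcript on the array, and none of these probe sets had the name suffix that marks sequence shared with other transcripts. Whether transcripts of one neighbour also bound probes of another was not tested.

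A heavy-metal-associated domain is a small fold that can hold a metal ion such as copper, typically through a pair of cysteines, and it is known from copper chaperones and from metal-pumping ATPases. Plants have many genes for small proteins of this kind, with or without a lipid anchor, and some are known to take part in metal handling or in responses to stress and pathogens. The tables used here give the 7 genes by locus code alone, so no function is stated for a single one of them.

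Seedlings were exposed for 30 min to 1 µM chitooctaose, an oligomer of the N-acetylglucosamine that makes up chitin, a fungal wall polymer that plants sense through LysM receptor kinases. Control seedlings received water in an equal amount, 20 µl added to 10 ml of liquid. All were Col-0 plants, 14 days old, grown under constant light in shaken liquid medium with dextrose and collected whole, with 3 arrays per treatment that the series text calls biological replicates. That text puts the exposure at 3 min against 30 min elsewhere in the labels, and the description field of the chitooctaose arrays speaks of water, so grouping and time follow the titles and protocols. In RNA of whole seedlings a change in the number of cells of a type and a change in RNA per cell cannot be told apart. The median intensity of the 22746 tested probe sets was 157.6 to 168.5 on the chitooctaose arrays and 155.7 to 169.2 on the water arrays. Log2 intensities correlated across probe sets at Pearson's r of 0.977 to 0.984 within a treatment and 0.954 to 0.962 across treatments. None of 5 shoot and root genes listed for a check of the tissue was on a named probe set, so the tissue was not checked against markers.

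The neighbours did not all respond to the same degree. AT5G52760 and AT5G52750, which lie side by side, were far higher with chitooctaose, 39.5-fold and 14.3-fold. The first of these folds rests on water values near background, and raising them to a floor of 64 gave 14.5-fold. The second had no value under 64 and stayed at 14.3-fold. AT5G52710, at the far end of the run, was 2.18-fold higher. AT5G52720 and AT5G52740, between them, and AT5G52770, on the other side of AT5G52760, had dim signals and log2 changes of 0.33 to 0.43. Log2 changes are differences of mean log2 intensity, chitooctaose minus water, with values under a floor of 16 raised to it.

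AT5G52760 had intensities of 875.3, 1150.8 and 788.8 on the chitooctaose arrays, against 25.9, 19.8 and 25.3 on the water arrays. The groups were far apart: the lowest chitooctaose value was 30.5 times the highest water value, and the highest was 58.2 times the lowest. The mean was 938 ± 189 with chitooctaose and 23.6 ± 3.38 with water (SD, n = 3 each), a log2 change of 5.30 (SE 0.19). The probe set was brighter than 84.0 to 89.5% of the tested probe sets on the chitooctaose arrays and than 6.56 to 9.52% of them on the water arrays. These ranks are given as a measure of signal over background and not of transcript amount. This change ranked 5 among all 22746 probe sets, which is what brought the gene and its neighbours under study.

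AT5G52750, the neighbour on the lower-numbered side, had 1991.3, 1864.0 and 1950.5 on the chitooctaose arrays, against 132.9, 162.9 and 113.6 on the water arrays. Every chitooctaose value was at least 11.4 times every water value, and the largest ratio of any pair was 17.5. The mean was 1935 ± 65.0 with chitooctaose and 136 ± 24.8 with water (SD, n = 3 each), and the log2 change was 3.84 (SE 0.13), rank 56 of all probe sets. With water this probe set was well inside the range of the array, brighter than 40.3 to 51.0% of the probe sets, and with chitooctaose it was brighter than 93.8 to 94.1%. Its values were above 64 on every array, so floors of 1 and 64 left its change as it was.

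AT5G52760 and AT5G52750 differed in how their arrays were ordered, which with 3 arrays per treatment is a description and was not tested. Chitooctaose replicate 2 was the highest array for AT5G52760 and the lowest chitooctaose array for AT5G52750, and water replicate 2 was the lowest for AT5G52760 and the highest water array for AT5G52750. The coefficient of variation over the chitooctaose arrays was 20.1% for AT5G52760 and 3.36% for AT5G52750. The log2 change of AT5G52760 exceeded that of AT5G52750 by 1.46 (SE 0.32, from within-array differences). With a floor of 1 the gap was also 1.46, as no value of either gene lay below 16. With a floor of 64, above all 3 water values of AT5G52760, the changes were 3.86 and 3.84. The gap was then 0.01 (SE 0.24). Of these 2 genes that floor raises only the water values of AT5G52760, so it shrinks the gap by construction. It does not show that the 2 changes are equal. The comparison of these 2 changes was chosen after their values were seen.

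**Figure D1:**
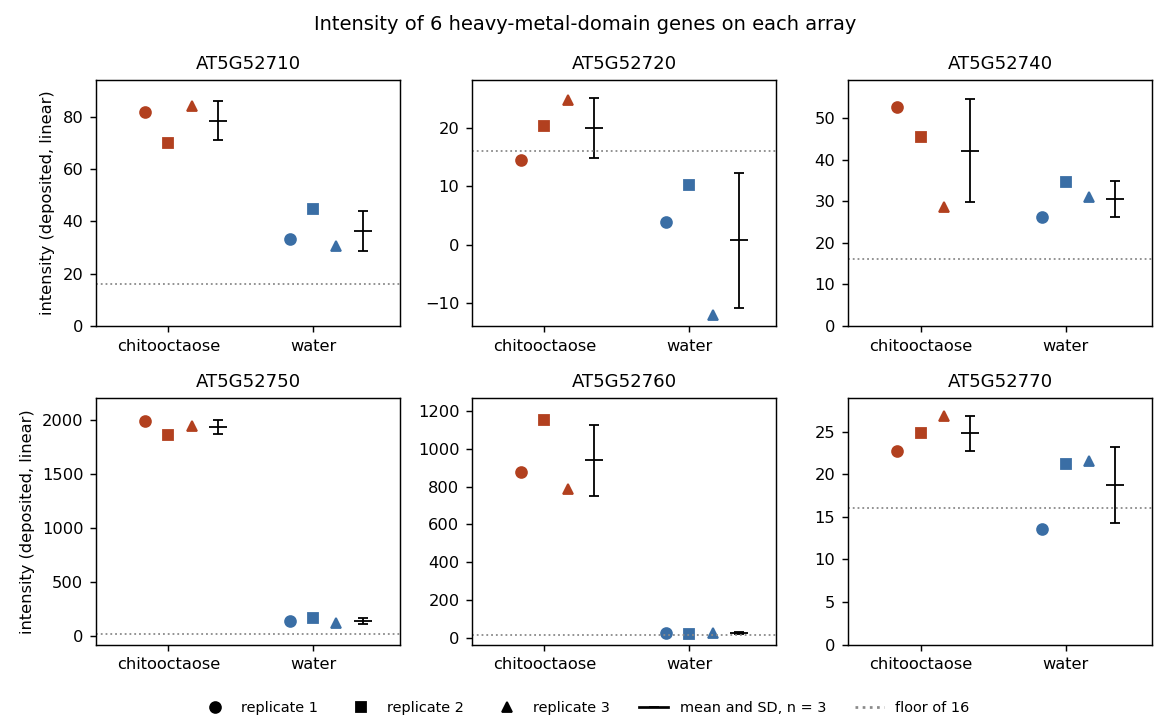
Deposited intensity (vertical axis, linear, a scale of its own in each panel) of the 6 measured genes on the 3 chitooctaose arrays (left) and the 3 water arrays (right); each symbol is an array, bars are mean and SD, and the dotted line is the floor of 16. AT5G52750 and AT5G52760 stand far above their water values, AT5G52710 less far, and AT5G52740 overlaps.

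AT5G52710, the first gene of the run, had 81.8, 69.9 and 84.0 on the chitooctaose arrays, against 33.3, 44.9 and 30.7 on the water arrays. The groups did not overlap, and the lowest chitooctaose value was 1.55 times the highest water value. The mean was 78.6 ± 7.61 with chitooctaose and 36.3 ± 7.56 with water (SD, n = 3 each), a log2 change of 1.13 (SE 0.18). The gene stayed among the dimmer signals in both, brighter than 30.3 to 34.0% of probe sets with chitooctaose and than 10.7 to 19.7% with water. Its place past the call threshold was lost without water replicate 1 or 3 and without chitooctaose replicate 1, 2 or 3, where its log2 change was 1.02 to 1.21, and also with a floor of 64, where it was 0.29. It was kept without water replicate 2, the highest water array, where the log2 change was 1.29.

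AT5G52740, which lies directly beside AT5G52750, had 52.6, 45.3 and 28.6 on the chitooctaose arrays, against 26.1, 34.6 and 31.0 on the water arrays. The groups overlapped: chitooctaose replicate 3 lay below water replicates 2 and 3. The mean was 42.2 ± 12.3 with chitooctaose and 30.5 ± 4.29 with water (SD, n = 3 each). The log2 change was 0.43, with a 95% interval from -0.21 to 1.06. That interval lies below the changes of AT5G52750 and AT5G52760 and reaches into the range of AT5G52710.

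AT5G52770, directly beside AT5G52760 on the other side, had 22.8, 24.8 and 26.9 on the chitooctaose arrays, against 13.6, 21.2 and 21.6 on the water arrays. The groups did not overlap, but the gap between them was small, the lowest chitooctaose value being 1.06 times the highest water value. The mean was 24.8 ± 2.06 with chitooctaose and 18.8 ± 4.50 with water (SD, n = 3 each), and water replicate 1 was below the floor. The log2 change was 0.35, with a 95% interval from -0.01 to 0.72. These values were brighter than at most 10.6% of the probe sets on any array.

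AT5G52720 was at or near background on every array, with 14.6, 20.4 and 24.8 for chitooctaose, against 4.0, 10.3 and -12.0 for water. All 3 water values and the value of chitooctaose replicate 1 were below the floor. The chitooctaose values were higher than every water value. The log2 change was 0.33 after values were raised to the floor, and lowering the floor to 1 gave 2.49, so its size is set by the floor and no fold is given.

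In all, 3 of the 6 measured genes were past the call threshold (limma, Benjamini-Hochberg adjusted p under 0.05 over all probe sets), all 3 higher with chitooctaose, and none was lower. Of all tested probe sets 4.24% were called higher and 0.805% lower. The chitooctaose arrays were all above the water arrays for 5 of the 6 genes and for 9.10% of all tested probe sets. They were all below for none of the 6, against 10.4% of all tested probe sets. As the contrast chose the run, these shares are set side by side without being read as a result. The median log2 change, likewise not read as a result, was 0.78 over the 6 genes and -0.04 over all tested probe sets.

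With the floor of the main comparison, the order of the genes by log2 change was AT5G52760, AT5G52750, AT5G52710, AT5G52740, AT5G52770 and AT5G52720. The place of AT5G52720 depends on the floor. With a floor of 1 its log2 change was 2.49 (SE 0.82), above the 1.13 of AT5G52710. Its SE in the main comparison is not used here, as all 3 water values were raised to the floor. AT5G52740 and AT5G52770 lie within 0.10 of each other in the main comparison, less than the SE of each, 0.26 and 0.15. AT5G52740, AT5G52770 and AT5G52720 had chitooctaose means of 19.9 to 42.2, close to the floor. Only AT5G52750 and AT5G52760 were above the dimmest 40% of probe sets.

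Beyond the run, 15 of 29 genes with locus codes from AT5G52600 to AT5G52900 were measured. AT5G52670 was the 1 gene past the threshold, and it was higher. It had 143.7, 143.4 and 143.9 on the chitooctaose arrays, against 39.3, 34.0 and 38.9 on the water arrays. The groups were well apart, with a 3.85-fold change (log2 change 1.94, SE 0.12, limma adjusted p = 0.000302). The water values were dim, and with a floor of 64, which raised all of them, the log2 change was 1.17. AT5G52670 is also listed among the genes for heavy-metal-associated domain proteins, and in the gene order it lies 4 genes before AT5G52710. Of the genes between them, neither AT5G52680 (log2 change 0.27) nor AT5G52690 (-0.05) passed, and AT5G52700 had no named probe set. The list, taken from general knowledge, holds none of these genes, and whether they too belong to the family was not checked. AT5G52680 lay below the floor on every water array and on chitooctaose replicate 1.

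The other flanking genes gave no called change. The gene next to AT5G52770, AT5G52780, stood at 811 ± 100 with chitooctaose and 800 ± 80.8 with water (SD, n = 3 each), a log2 change of 0.02 with a clear signal in both. Without AT5G52670, the 14 flanking genes had log2 changes from -0.28 to 0.36, with a median of 0.02, and limma called 0 of them (1 at an unadjusted p under 0.05, AT5G52880, lower by a log2 change of -0.28). Among the called genes, AT5G52750 and AT5G52760 lay side by side. AT5G52670, AT5G52710 and that pair lay apart along the gene order, with genes that did not pass between them. Of those between, AT5G52680 and AT5G52720 had all 3 water values below the floor, and AT5G52740 was dim. AT5G52700 and AT5G52730 had no named probe set. A change in these genes could have been missed, so separate places of response are not shown.

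**Figure D2:**
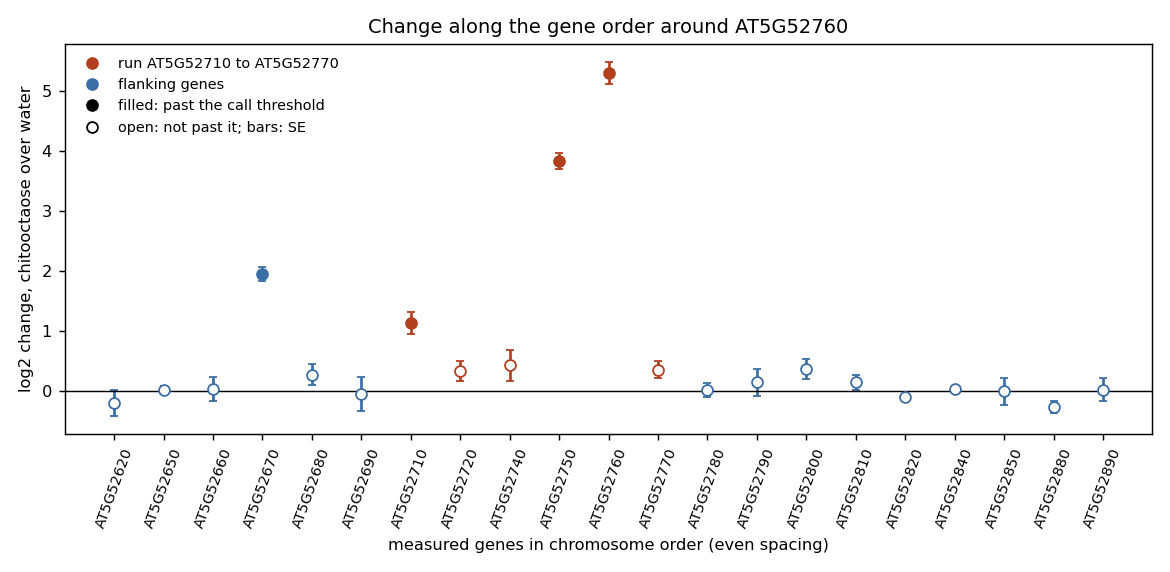
Log2 change, chitooctaose over water (vertical axis), of each measured gene from AT5G52620 to AT5G52890 in chromosome order (horizontal axis, evenly spaced); points are model estimates, bars are SE, and filled points are past the call threshold. AT5G52750 and AT5G52760 stand at 3.84 and 5.30 and AT5G52670 at 1.94. Between these, AT5G52710 stands at 1.13, and the genes shown as open points lie from -0.28 to 0.43. The bars of AT5G52680 and AT5G52720 are no measure of precision, as all 3 water values of each were raised to the floor.

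Other genes known for heavy-metal-associated domain proteins were taken from a list of 55 loci, of which 31 were measured. Of these, 3 rose, none fell and 28 did not pass in limma (of these 28, 4 were higher and 1 lower at an unadjusted p under 0.05), while 5.04% of all tested probe sets were called, and 4.32% of the 13355 genes with 1 probe set each. Without water replicate 2 the number called was 5, with AT3G25855 and AT1G57780 added. The first was higher with chitooctaose (log2 change 1.21 over all arrays) and the second lower (-0.41), so a called decrease appeared there. AT1G57780 was close to the floor, with 17.3, 15.3 and 16.8 on the chitooctaose arrays, against 25.9, 17.6 and 23.9 on the water arrays. Chitooctaose replicate 2 was below the floor, and the water array left out held its lowest water value. AT5G52670 had the largest change of the 31. AT5G03380 had 1726.3, 1461.3 and 1833.9 on the chitooctaose arrays, against 629.7, 533.4 and 658.3 on the water arrays, and rose 2.76-fold (log2 change 1.46, SE 0.12, limma adjusted p = 0.00113). No array of one treatment came near the other for this gene.

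AT5G60800 had 228.3, 228.6 and 191.0 on the chitooctaose arrays, against 94.7, 133.3 and 111.0 on the water arrays, without overlap. It rose 1.92-fold (log2 change 0.94, SE 0.16, limma adjusted p = 0.028). Its call was lost with a floor of 64 (log2 change 0.94) and on leaving out water replicate 1 (0.82) or 3 (0.94) or any of chitooctaose replicates 1 (0.90), 2 (0.90) and 3 (1.03). The 28 genes that did not pass had log2 changes from -0.60 to 1.21. The median was 0.78 over the 6 genes of the run and 0.04 over the 31 listed genes, or 0.02 over the list without AT5G52670, which lies near the run. As the contrast chose the run, these medians are set side by side without being read as a result. The median of the run also depends on the floor, through AT5G52720. The tables name none of the 31 beyond the locus code, so that they belong to the family is taken from general knowledge.

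**Figure D3:**
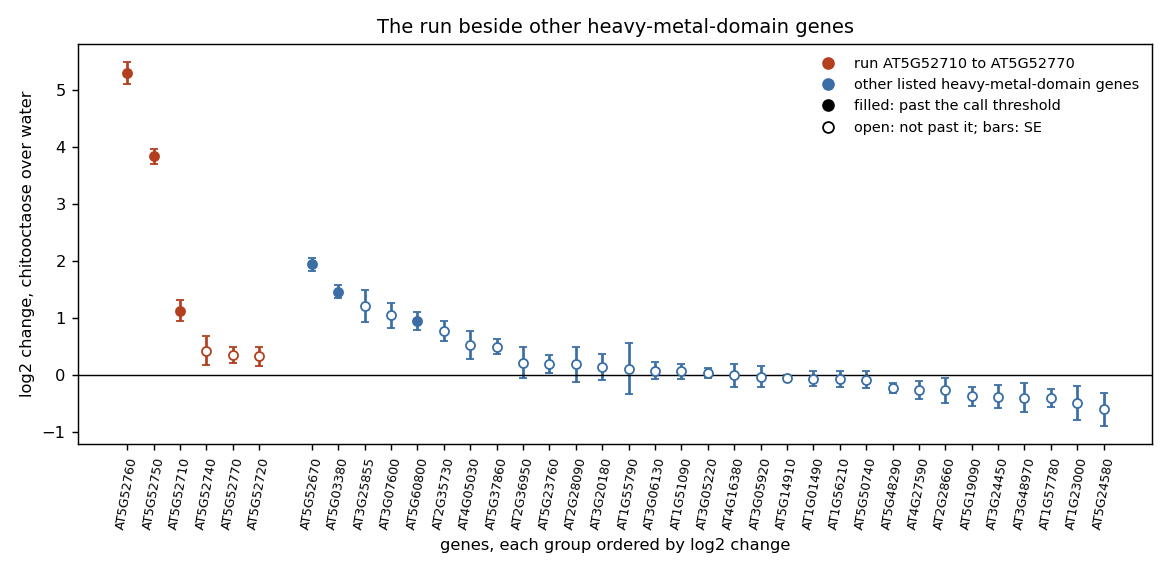
Log2 change, chitooctaose over water (vertical axis), of the 6 measured genes of the run (left) and 31 other listed heavy-metal-domain genes (right), each group ordered by its change; bars are SE and filled points are past the call threshold. AT5G52760 and AT5G52750 lie above all listed genes, whose highest is AT5G52670 at 1.94. The bar of AT5G52720 is no measure of precision, as all 3 of its water values were raised to the floor.

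Genes of metal transport and metal binding were hardly measured, with 2 of 30 listed genes on a named probe set. MT1C, which encodes a metallothionein, a small cysteine-rich protein that binds metals, had 4069.1, 3439.6 and 4281.0 on the chitooctaose arrays, against 4558.1, 3526.4 and 4267.9 on the water arrays. The groups overlapped, and the log2 change was -0.07 (SE 0.13, limma adjusted p = 0.894). CCS, the copper chaperone for superoxide dismutase, had a log2 change of 0.11 (SE 0.20, limma adjusted p = 0.882). Neither passed at an unadjusted p under 0.05. The pair does not speak for metal handling as a whole.

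The genes most like AT5G52760 over the 6 arrays, by Pearson's r of log2 intensity and leaving out the run, were AT2G33710, AT3G55050, AT5G43520, AT4G35380 and AT3G56880. Their r was 0.9986 to 0.9996, which is a description: the points are the same 6 arrays in 2 groups, so that r mostly reflects the step between treatments. AT2G33710 had 407.5, 466.5 and 413.0 on the chitooctaose arrays, against 63.8, 54.3 and 60.0 on the water arrays. Replicate 2 was the highest chitooctaose and the lowest water array, as for AT5G52760. A like order of arrays is part of what the choice by highest r selects. High likeness did not require a change of like size, as AT3G55050 had a log2 change of 0.61. Among 13186 genes, AT5G52670 ranked 13 in likeness and AT5G52750 ranked 143. AT5G52710 ranked 525, AT5G52770 ranked 1109, AT5G52720 ranked 1366 and AT5G52740 ranked 1561.

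**Figure D4:**
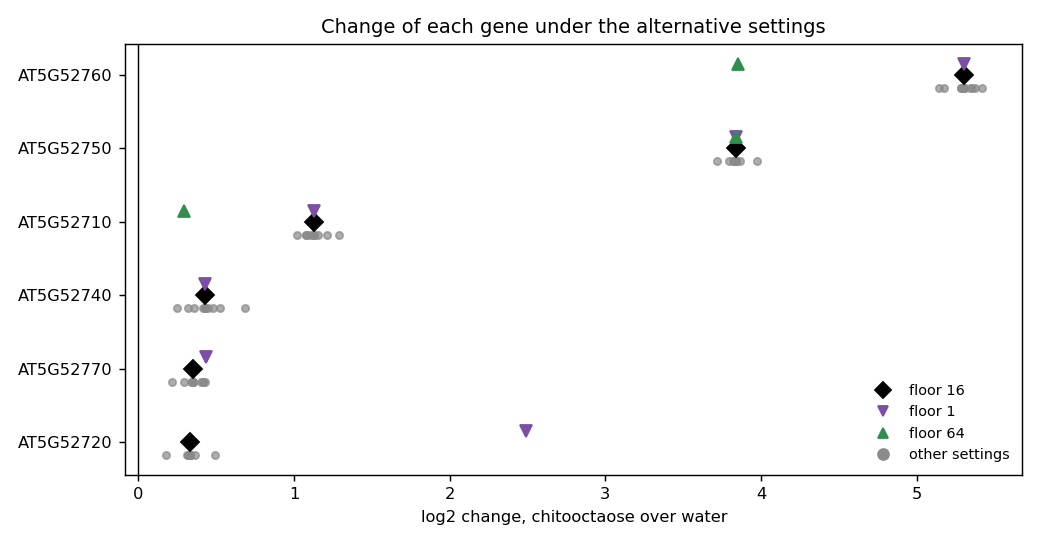
Log2 change, chitooctaose over water (horizontal axis), of each measured gene of the run (vertical axis) with the floor of 16 (diamonds), floors of 1 and 64 (triangles) and the other settings (circles). AT5G52750 stays at 3.72 to 3.98, AT5G52760 drops to 3.86 with a floor of 64, and AT5G52720 moves to 2.49 with a floor of 1; the 3 dimmest genes have no point at 64 because all their values lie below it.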

How the data were processed

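Biotin-labelled cRNA from 7 µg of total RNA was hybridised to Affymetrix arrays, per the labels' protocols. The authors deposited linear intensities, 1 per probe set and array. How they were summarised, background-corrected and scaled was not given in the sources used here, so levels are compared between arrays for a probe set, and the rank of an intensity on its array serves solely to show how far a signal lies above background. Of 22810 probe sets, 64 controls were left out. Of the other 22746, 13513 had exactly 1 gene in the platform annotation and 503 had several. Locus codes came through gene IDs from the RefSeq table (TAIR10.1). No build was stated for the array, so no coordinates are given. The probe set with the highest mean stood for a gene.

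Values below 16 were set to 16 (3.81 to 4.91% per array), log2 was taken, and limma 3.58.1 (lmFit, eBayes with trend, R 4.3.3) compared 3 chitooctaose with 3 water arrays, 2-sided, with Benjamini-Hochberg adjustment over all tested probe sets. The number of arrays limits the precision. The code was tested on simulated data. The genes, lists and tests were chosen with earlier results of these data known. The genes named are all measured genes of the run, up to 3 called genes with the largest change per list (the brightest where none was called), and the 5 most like AT5G52760. Alternatives were other floors, scalings and variance models, a filter on dim probe sets, the replicate number as a block, and leaving out each array.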

Additional observations from a re-analysis of the deposited data

How the results depend on the processing

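AT5G52670 and AT5G03380 kept their direction and their side of the threshold under every alternative run for them (13 and 14). So did AT5G52760 and AT5G52750 (14 and 14), and AT5G52720, AT5G52740 and AT5G52770 (12 each). As the contrast chose the run, for its genes this describes the settings and is no support for a response. With a floor of 64 AT5G52720, AT5G52740 and AT5G52770 gave no value. Neither they nor AT5G52710 and AT5G52670 passed the filter on dim probe sets. The log2 change of AT5G52710 (1.13) lost its call with a floor of 64 (0.29), with the replicate number as a block (1.13) and without single arrays (1.02 to 1.29, call kept only without water replicate 2). The calls among the 6 genes of the run then numbered 2 in place of 3. The 15 flanking genes had 0 calls in place of 1 with limma without the dimmest 40% of probe sets, since AT5G52670 was removed (of the 7 left, 1 had an unadjusted p under 0.05 in the fit of all probe sets). Of the 31 listed heavy-metal-domain genes 5 were called with robust variances and 5 without water replicate 2, in place of 3. Leaving out single arrays gave 2 to 5. AT3G07600, AT3G25855 and AT1G57780 were among those added, the last of them lower with chitooctaose and close to the floor. Over all probe sets 183 were lower, against 93 with the block, 86 to 176 without single arrays, 265 with quantile normalization, 260 with median centring and 158 to 225 with the other settings, and 964 were higher, against 721 to 1060. The cause was not tested where not stated. Same-numbered arrays deviated from their group means with correlations of 0.05, 0.03 and -0.10, so the numbers are not taken as pairs; with the block AT5G60800 (0.94) lost its call too. No gene of the run had another named probe set to try. Signal close to the floor limits how well the changes of the 3 dimmest genes can be sized.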
